A study of Mus musculus with 12 samples.

Results

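The integrin genes Itgb3, Itgav, Itgb5, Itgb8, Itgb1, Itga5, Itga6, Itgb4, Itgb2 and Itgam, were described across mouse cerebral white matter on a control fat diet (CFD, 10% of calories from fat) or a high-fat diet (HFD, 60%). They are 10 of the 27 integrin subunit genes listed here and 10 of the 24060 genes in the count table, and they were selected by name, with earlier results of these libraries known, above all the level of Itgb3 in the HFD pulldowns. All 6 animals were male Tie2-Cre:Rpl22-HA mice, 3 on each diet, in which Cre driven by the Tie2 (Tek) promoter switches on an HA tag on the ribosomal protein Rpl22, and none received any other agent according to the labels. Each animal gave an input library (RNA of the white matter lysate) and an IP library (RNA pulled down with tagged ribosomes), so there were 12 libraries in 4 groups of 3. Tie2 is active in endothelium and also in part of the blood lineage, and the age of these transgenic mice is not given in the sources used here.

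Integrins are receptors built from 1 alpha and 1 beta subunit that bind cells to extracellular matrix or to other cells, and a subunit reaches the surface only with a partner. The alpha-v subunit pairs with several beta subunits to bind vitronectin, fibrinogen and latent TGF-beta, the β1 subunit pairs with many alpha subunits to bind fibronectin, laminin and collagen, and the β2 subunit is restricted to leukocytes, where in brain it is carried mainly by microglia. In brain vessels, α5β1, α6β1 and alpha-v integrins join endothelium to its basement membrane and to the processes around it.

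Total counts were 19567186 to 33660708 per library, and 3 counts, the limit that a count of 0 allows, corresponded to 0.0834 to 0.168 CPM (counts scaled by library size with TMM factors). The ribosomal RNA locus Rn45s took 38.7% to 42.3% of counts in CFD IP, 17.1% to 19.1% in HFD IP and 6.34% to 14.2% in input. Rpl22, the tagged gene, had 422 to 2384 counts. The summed level of 15 endothelial markers was 4.11 to 223 CPM in CFD IP and 23.3 to 68.6 CPM in HFD IP, against 12.2 to 52.2 CPM in input, and Tek itself had 0 counts in 3 of 6 IP libraries and 1, 43 and 80 counts in the others. The 10 neuronal markers summed to 5782 to 11197 CPM in IP. None of the 12 endothelial markers tested was called higher in IP on either diet by the edgeR test used for the comparisons, and 1 on CFD and 0 on HFD had an unadjusted p under 0.05, so the IP libraries are named by their fraction here and not as endothelium.

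Itgb3 encodes β3, which joins alpha-v in the vitronectin receptor and αIIb in the platelet fibrinogen receptor (chr11:104608000-104670476, mm10). In CFD input it had 126, 70 and 19 counts in animals 489, 555 and 556, which are 5.41, 2.47 and 0.693 CPM. In CFD IP the same animals had 2, 1 and 0 counts, all under 3 counts. In HFD input it had 1, 53 and 15 counts in animals 516, 517 and 676 (0.0278, 1.92 and 0.533 CPM). In HFD IP these animals had 1, 2294 and 67 counts, or 0.0347, 75.8 and 2.04 CPM. Animal 517 thus held 97.3% of the HFD IP level, while animal 516 was within the range of the CFD IP libraries, so the groups overlapped. The mean HFD IP level was at least 166-fold higher than a CFD IP level of 3 counts per library, and at least 6.65-fold higher with animal 517 left out. The second value rested on the 67 counts of animal 676, since animal 516 had 1 count. It is therefore no lower bound for each HFD animal. These IP values chose the gene and are a description.

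Platelets carry β3, so their markers are given beside it, and the part of platelets in the level of Itgb3 was not tested. Of 10 platelet and megakaryocyte markers, Gp6, Treml1 and Tubb1 had 0 counts in all 12 libraries, and Pf4, Ppbp and Gp9 had 0 counts in HFD IP of animal 517. In that library Gp1bb had 31, Gp1ba 16 and Gp5 2 counts. The summed platelet level was 1.62 to 5.24 CPM in HFD IP, with animal 517 the lowest, and 10.8 to 20.6 CPM in CFD IP. A different gene led each CFD IP sum: Gp5 with 353 counts in animal 489, Gp1bb with 313 in 555 and Gp1ba with 181 in 556. The sums are therefore not a level shared by the platelet markers. Itga2b, the αIIb partner of β3, had 12, 1 and 0 counts in CFD IP and 0, 0 and 53 counts in HFD IP, with 0 counts in animal 517. Fermt3, the blood-cell kindlin that binds beta subunit tails, was examined after its values were seen and reached 865 counts in HFD IP of animal 517, against 0 to 73 counts in each of the other 11 libraries.

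**Figure D1:**
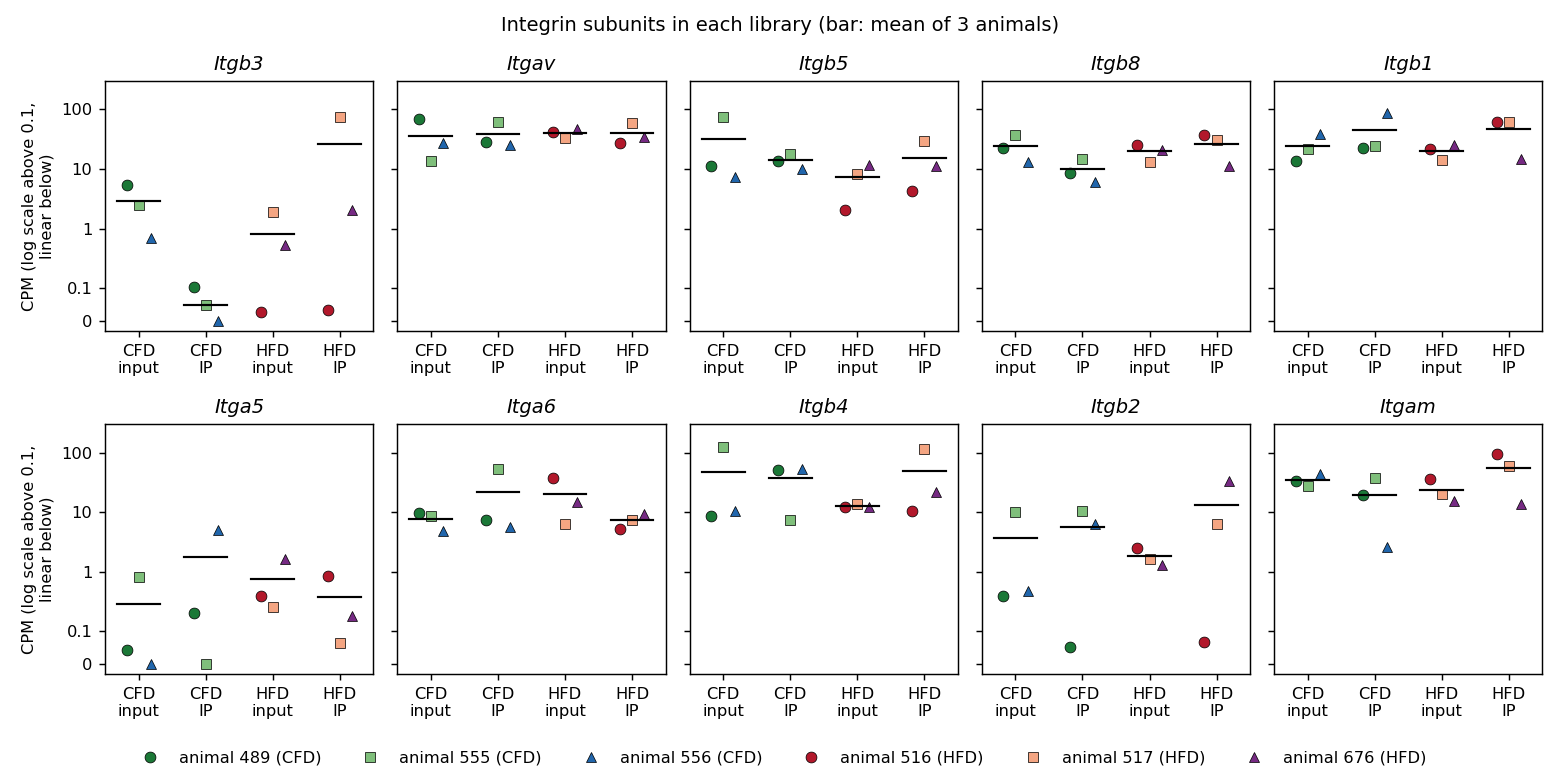
Level of each integrin subunit in every library, in TMM-scaled CPM on an axis that is logarithmic above 0.1 and linear below, by diet and fraction, with 1 symbol per animal and a bar at the mean of 3 animals. Itgb3 spans 0 to 75.8 CPM and Itgav 13.8 to 68.1 CPM, and the high Itgb3 library is HFD IP of animal 517.

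Itgav encodes alpha-v, the partner that β3, β5 and β8 share (chr2:83722303-83806917, overlapping Dnmt3l-ps1). It was present in every library. Its CPM was 68.1, 13.8 and 27.5 in CFD input and 27.9, 61.1 and 25.1 in CFD IP (animals 489, 555 and 556). In HFD it was 42.0, 32.7 and 46.3 in input and 26.9, 58.2 and 34.0 in IP (animals 516, 517 and 676). The group means lay between 36.5 and 40.4 CPM, and each group overlapped the others. No group therefore stood apart in alpha-v, whose libraries ranged from 13.8 to 68.1 CPM. Those of its β3 partner ranged from 0 to 75.8 CPM, with the top value in HFD IP of animal 517. The HFD IP and CFD IP groups of Itgb3 overlapped too.

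Itgb5 encodes β5, a second vitronectin receptor chain (chr16:33829665-33949338). Input of CFD animal 555 held 75.5 CPM against 11.3 and 7.22 in animals 489 and 556, and CFD IP held 13.8, 18.1 and 10.0 CPM. HFD input held 2.09, 8.33 and 11.7 CPM and HFD IP 4.23, 29.9 and 11.2 CPM in animals 516, 517 and 676. The high mean of CFD input, 31.3 ± 38.3 CPM (SD, n = 3), rested on animal 555, which held 80.3% of it.

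Itgb8 encodes β8, which with alpha-v activates latent TGF-beta and is needed for brain vessel development (chr12:119162803-119238276, overlapping Gm52023). It had 22.9, 36.6 and 12.99 CPM in CFD input and 8.69, 14.9 and 5.94 CPM in CFD IP. In HFD it had 25.4, 13.3 and 20.9 CPM in input and 37.7, 31.0 and 11.1 CPM in IP. In each CFD animal the IP library was below its own input, and in HFD it was above in 2 of 3 animals. The mean ratio of HFD IP to CFD IP was 2.70, with overlapping groups, and ran from 2.14 to 3.64 with single animals left out.

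Because these beta subunits compete for alpha-v, their shares of the summed CPM per kb of Itgb1, Itgb3, Itgb5, Itgb6 and Itgb8 were compared within each library. Itgb3 made up 27.8% in HFD IP of animal 517, on 2294 counts, 3.22% in animal 676 and 0.0212% in animal 516. It was 0% to 0.132% in CFD IP, 0.765% to 6.20% in CFD input and 0.0345% to 3.14% in HFD input. The remainder was mostly Itgb1 (12.7% to 80.6%), Itgb8 (7.43% to 58.9%) and Itgb5 (4.60% to 57.1%). Even in animal 517 the Itgb1 share, 31.5%, was above that of Itgb3. These are shares of transcript level and not of receptor pairs, and β1 has many other alpha partners.

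**Figure D2:**
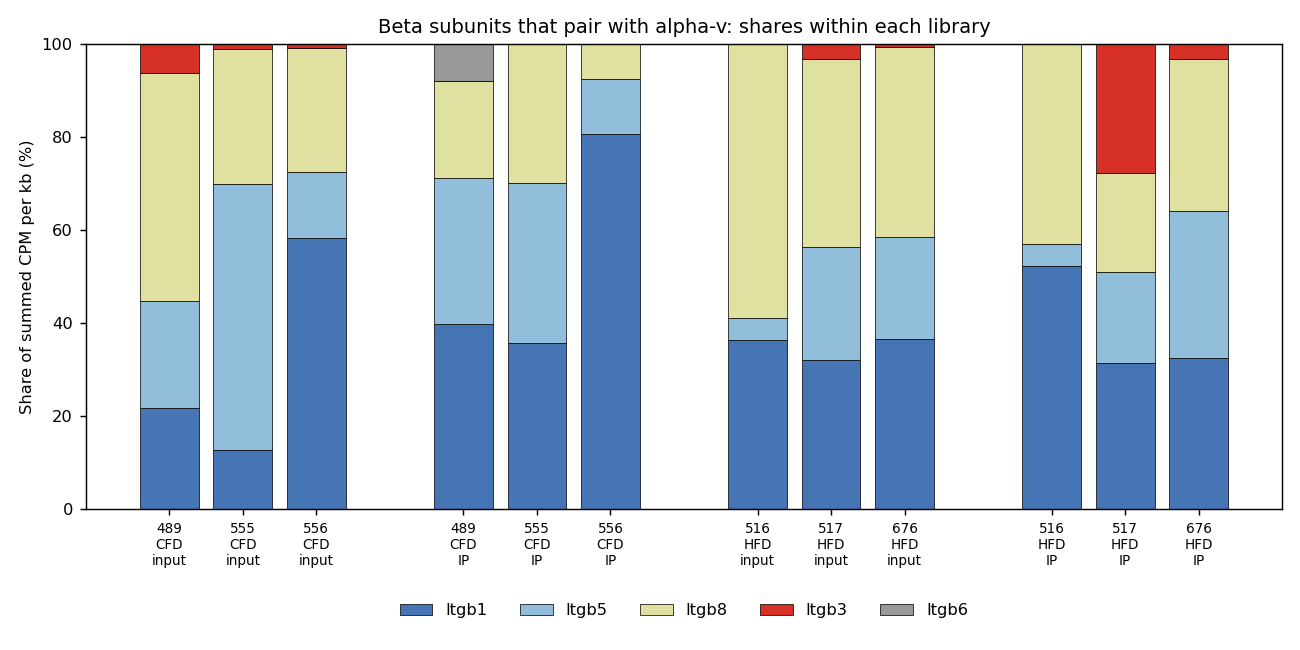
Share of each beta subunit able to pair with alpha-v, in percent of their summed CPM per kb, in each of the 12 libraries grouped by diet and fraction. The Itgb3 segment is 27.8% in HFD IP of animal 517 and at most 6.20% elsewhere, and Itgb6 is seen mainly in CFD IP of animal 489.

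Itgb1 encodes β1, the common partner of the fibronectin, laminin and collagen receptors (chr8:128685654-128733579). It had 13.8, 21.7 and 38.3 CPM in CFD input and 22.6, 24.3 and 87.3 CPM in CFD IP. HFD input had 21.3, 14.2 and 25.3 CPM and HFD IP had 62.1, 62.3 and 15.0 CPM. The IP library was above its own input in 5 of 6 animals, with animal 676 the exception, and the mean difference was 0.83 ± 1.03 on the log2 scale (SD, n = 6). The edgeR quasi-likelihood fit over both diets gave 1.03 (SE 0.50), which was not called (adjusted p = 0.360).

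Itga5, the alpha chain of the fibronectin receptor α5β1, was near the limit of detection (chr15:103344286-103366791, overlapping Mir6963). It had 1, 23 and 0 counts in CFD input and 4, 0 and 90 counts in CFD IP. HFD input had 14, 7 and 47 counts and HFD IP 25, 2 and 6 counts. Its one level above 2 CPM, 5.05 CPM, was in CFD IP of animal 556, the library in which the endothelial markers also summed highest (223 CPM, of which Egfl7 gave 3650 counts). Whether the 2 are related was not tested.

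Itga6 encodes α6 of the laminin receptors (chr2:71786886-71858427). It had 9.74, 8.67 and 4.92 CPM in CFD input, and 7.55, 53.7 and 5.55 CPM in CFD IP. HFD input had 38.2, 6.44 and 15.0 CPM, and HFD IP 5.27, 7.43 and 9.33 CPM. A single library, CFD IP of animal 555, held 80.4% of its group's level. The HFD IP mean was 0.330 of the CFD IP mean, and 1.12 of it without animal 555, with overlapping groups.

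Itgb4 encodes β4, whose only known partner is α6 (chr11:115974725-116008412). It overlaps B230344G16Rik and Galk1, and since the use of strand in counting is not stated, reads of these neighbours may be included. It had 8.50, 125 and 10.7 CPM in CFD input and 50.3, 7.49 and 52.8 CPM in CFD IP. HFD input was tight at 12.1, 13.8 and 12.3 CPM, and HFD IP had 10.7, 114 and 22.0 CPM. In animal 555 Itgb4 was high in input and low in IP while Itga6 was the reverse, and over the 12 libraries the partners did not rise together (Pearson r = -0.37, Spearman rho = -0.25 on log2(CPM + 1), a description over 6 animals sampled as input and IP).

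Itgam encodes αM, which with β2 forms complement receptor 3, a marker of microglia in brain (chr7:128062640-128118491). It had 33.8, 27.8 and 44.2 CPM in CFD input and 19.7, 37.2 and 2.64 CPM in CFD IP. HFD input had 35.5, 20.0 and 15.4 CPM, and HFD IP had 94.9, 58.9 and 13.9 CPM. The HFD IP mean, 55.9 ± 40.6 CPM, was 2.82 times the CFD IP mean, 19.8 ± 17.3 CPM (SD, n = 3 each), and the groups overlapped. With single animals left out the ratio ran from 1.84 without animal 516 to 5.02 without animal 555.

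Itgb2, the β2 chain (chr10:77530329-77565708), had 9, 284 and 13 counts in CFD input and 1, 219 and 114 counts in CFD IP. HFD input had 89, 46 and 37 counts and HFD IP 2, 195 and 1081 counts. Its highest library was animal 676 in HFD IP, where Itgam was lowest of its group, and its lowest HFD IP library was animal 516, where Itgam was highest. Over the 12 libraries the pair gave r = -0.33 and rho = -0.19. The 12 microglial markers summed to 139 to 194 CPM in CFD IP and 204 to 396 CPM in HFD IP, without overlap, and none was called between these groups. Taken singly, 10.6% of all genes were also without overlap here. Of the 12 markers, 9 had a fitted difference above 0, as had 7361 of all 14354 genes. Single markers differed widely: in HFD IP of animal 517 Csf1r had 5808 counts, Cx3cr1 77 and Aif1 0. The border macrophage markers summed to 2.64 to 16.2 and 7.37 to 30.0 CPM, and the neutrophil markers to 0.392 to 3.96 and 0.264 to 3.96 CPM. The part of these cells in Itgam and Itgb2 was not tested, and in bulk RNA fewer cells of a type cannot be told apart from less RNA per cell.

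Per kb of the length behind the deposited FPKM values, the mean levels over all 12 libraries ran from Itgb1 (8.11 CPM per kb) through Itgam (7.19), Itgb8 (6.50), Itgb4 (6.09), Itgav (5.48), Itgb5 (5.21), Itga6 (2.43), Itgb2 (2.12) and Itgb3 (1.28) to Itga5 (0.182 CPM per kb). Neighbours in this order overlapped in range throughout, and the order differed between groups. Itgb5 had the highest mean in CFD input, Itgb1 in CFD IP, Itgb8 in HFD input and Itgam in HFD IP, with Itgb1 the fifth in CFD input and the fourth in HFD input. Within groups the ranges of neighbours were separate in 4 places only, between Itgav and Itga6 in CFD input, between Itgb4 and Itgb2 and between Itgb2 and Itga5 in HFD input, and between Itga6 and Itga5 in HFD IP. Itgb3 was last of the 10 in CFD IP and HFD input, ninth in CFD input and eighth in HFD IP.

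The question of which subunits the pulldown holds beyond the whole tissue was asked with IP against input on each diet, by edgeR's quasi-likelihood test at a Benjamini-Hochberg adjusted p under 0.1 over the 14354 genes tested, among which were all 10 integrins. On CFD, 0 of the 10 were called, where 0.188% of all genes were (27, and 139 with animal as a replicate block), and 1 of 10, Itgb3, had an unadjusted p under 0.05, against 11.8% of all genes. Itgb3 was lower in CFD IP than in CFD input in each of 3 animals and its ranges did not overlap, which was also so for 15.2% of all genes. The CFD input level was at least 18.3-fold higher than 3 counts per CFD IP library, and at least 10.1-fold higher with input of animal 489 left out. The fitted log2 difference of -5.68 (SE 2.14) depends on the prior count and was not called (edgeR adjusted p = 0.315). DESeq2 called it (adjusted p = 0.0436), but DESeq2 called 816 genes in this comparison, against 27 by edgeR. Since CFD IP is an arm of the comparison that chose Itgb3, this is not independent of the choice.

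On HFD, 0 of the 10 were called, against 0.0139% of all genes (2, and 24 with the block), and Itgb3 alone had an unadjusted p under 0.05, against 6.51% of all genes. Its fitted log2 difference was 4.97 (SE 1.99, adjusted p = 0.667), and 1.88 without animal 517. The HFD IP libraries are the arm whose Itgb3 level chose the gene, so this p is not independent of the choice and supports nothing. Itgb4, at 1.94 (SE 0.96), came next (unadjusted p = 0.0558, adjusted p = 0.770, edgeR). None of the 10 was without overlap between HFD IP and HFD input, where 14.1% of all genes were. The median of the 10 was -0.16 on CFD and 1.12 on HFD, beside -0.01 over all genes on each diet. The 10 other integrin subunits tested had medians of 0.03 on CFD and -1.27 on HFD, with 2 of 10 above 0 on HFD. The HFD median of the members includes Itgb3 and uses the HFD IP libraries that chose it, so it is a description.

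**Figure D3:**
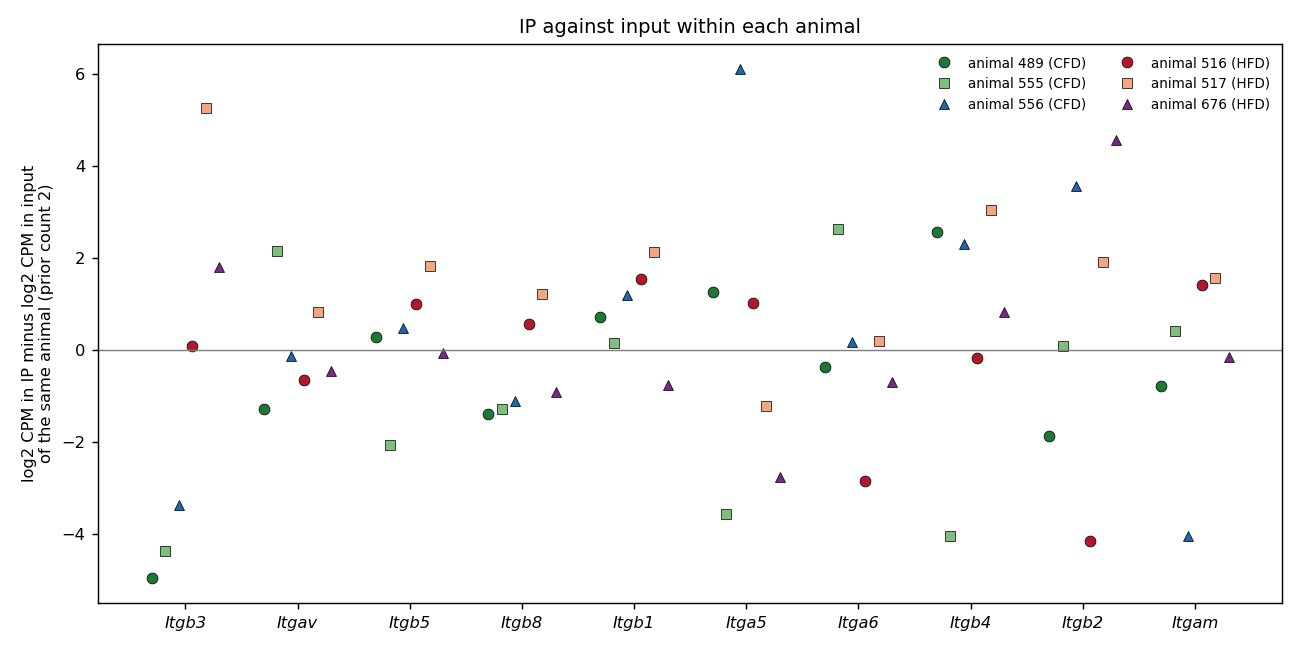
Difference of log2 CPM between IP and input of the same animal for each integrin subunit, with 1 symbol per animal and a line at 0 (equal levels). Itgb3 is below 0 in 3 of 3 CFD animals and above in 3 of 3 HFD animals, by only 0.09 in animal 516, and Itgb1 is above 0 in 5 of 6 animals.

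With both diets combined, 0 of the 10 were called, while 2.35% of all genes were, and 0 of the 10 had an unadjusted p under 0.05, against 13.9% of all genes. These fits reuse the libraries of the comparisons within each diet, the IP libraries that chose Itgb3 among them. Itgb1 had the smallest p of the 10 (unadjusted p = 0.0511, edgeR). Itgb3, with opposite signs on the diets, gave -0.36 (SE 1.12), and Itgav 0.02 (SE 0.45).

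The question of diet in unselected tissue was asked with HFD input against CFD input. The choice of genes rested above all on the pulldowns, but earlier results of all these libraries were known, so independence is not complete. No gene was called in this comparison (0% of all genes by edgeR, 31 genes by DESeq2), so 0 of the 10 were called. An unadjusted p under 0.05 was found for 0 of the 10 and for 2.03% of all genes. Itgb5 (-2.09, SE 1.05) and Itgb4 (-1.91, SE 0.96) were lowest on HFD, with unadjusted p of 0.0590 and 0.0589 (adjusted p = 1.0 each, edgeR). Both leaned on input of CFD animal 555, without which Itgb4 gave 0.41 and Itgb5 -0.33. None of the 10 was without overlap, where 10.4% of all genes were. Itgb3 gave -1.79 (SE 1.74), in the opposite direction to its level in IP.

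**Figure D4:**
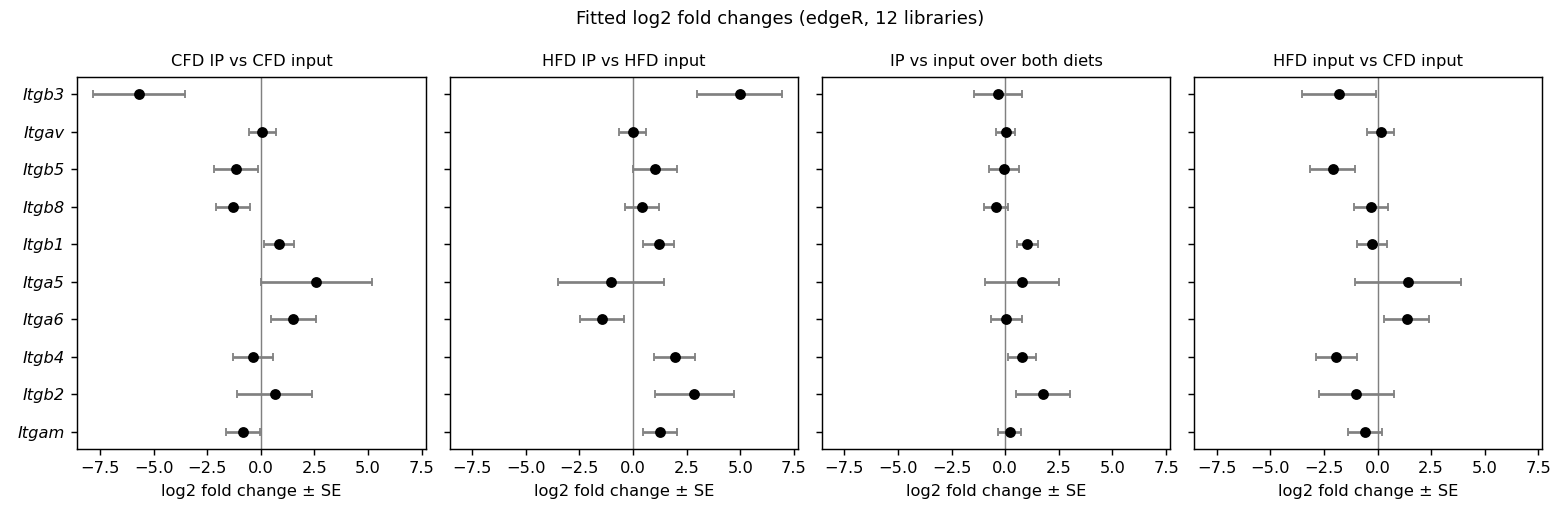
Fitted log2 fold changes of the 10 integrin subunits with their standard errors in 4 comparisons (edgeR, 12 libraries), with a line at 0. Itgb3 is at -5.68 in CFD IP and 4.97 in HFD IP against input and near 0 over both diets, and none of the points was called.

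Between the IP groups, no member was tested, since this comparison chose Itgb3. All genes gave 0.0557% called and 10.9% with an unadjusted p under 0.05, and 10.6% of genes had ranges without overlap, while 0 of the 10 integrins did. With each animal left out in turn, the ratio of mean HFD IP to mean CFD IP stayed above 1 for 3 of the 10, Itgb3, Itgb8 and Itgam, and crossed 1 for the other 7. The matching share of all genes is not given here, so 3 of 10 is a description without a background. Itgav had a ratio of 1.04 (0.800 without animal 517 to 1.497 without 555), Itgb1 of 1.04 (0.832 without 489 to 1.98 without 556) and Itgb5 of 1.08 (0.553 without 517 to 1.47 without 516). Itgb4 had a ratio of 1.33 (0.444 without 517 to 1.85 without 516) and Itgb2 of 2.32 (0.573 without 676 to 4.08 without 555). Itga5, near the limit of detection, had a ratio of 0.212 (0.0711 without 516 to 3.60 without 556), and Itga6 of 0.330 (0.240 without 556 to 1.12 without 555). The Rn45s share, given above, also differed between these groups, and its part was not tested.

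The spread between animals of a group was large for several members. The SD of log2 CPM within groups was 2.95 for Itgb2, 2.71 for Itgb3, 2.06 for Itga5, 1.60 for Itgb4, 1.33 for Itgb5, 1.27 for Itgam, 1.14 for Itga6, 0.91 for Itgb1, 0.74 for Itgav and 0.73 for Itgb8. Over all genes tested the median was 1.24 and the quartiles 0.687 and 2.01, so 6 of the 10 lay above the median. By this measure Itgav and Itgb8 were the steadiest. By edgeR's estimate of the coefficient of variation between replicates, Itgb8 (68.5%) came after Itgav (56.0%), Itgb1 (60.8%) and Itgam (66.6%).

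**Figure D5:**
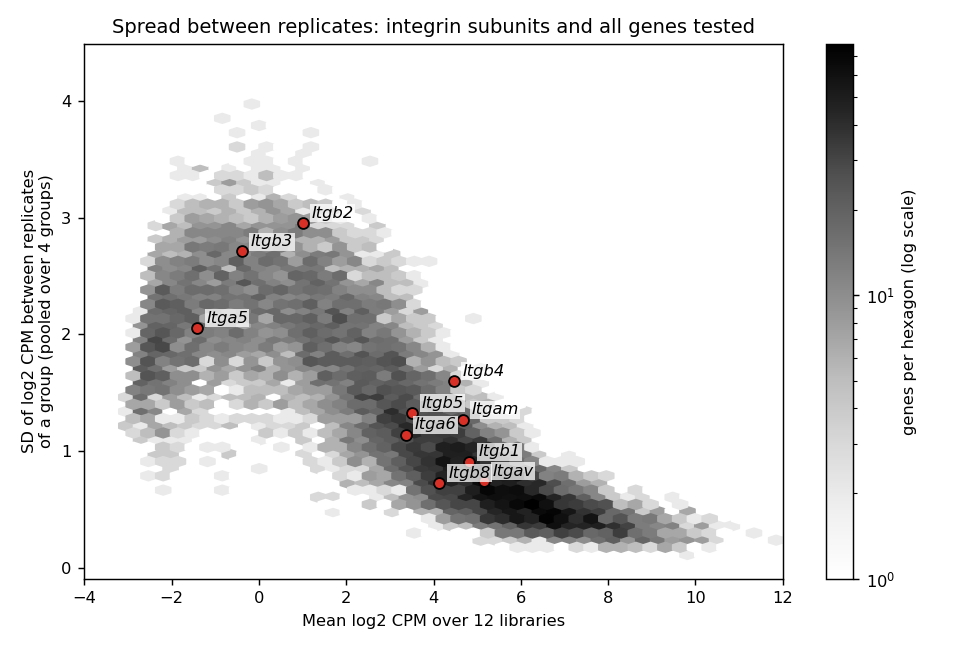
SD of log2 CPM between replicates, pooled over 4 groups, against mean log2 CPM for all 14354 genes tested (grey, darker where more genes fall) and the 10 integrin subunits (red). Itgb2, Itgb3 and Itga5 lie at low mean levels with SDs of 2.06 to 2.95, and Itgb8 and Itgav at 0.73 and 0.74.

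The genes whose log2(CPM + 1) over the 12 libraries was most like that of Itgb3 were 1700023F06Rik (r = 0.950), Fam131c (0.924), Ankk1 (0.922), Pcdhb8 (0.913) and Atf3 (0.902). All 5 had their highest count in HFD IP of animal 517, with 268, 217, 54, 510 and 411 counts. Without that library r fell to 0.827, 0.640, 0.643, 0.811 and 0.501. Among the 10 integrins themselves, Itgb8 and Itgam were most alike (r = 0.755, rho = 0.671), followed by Itgb4 and Itgb5 (r = 0.683, rho = 0.413), and Itga5 and Itgam were most opposed (r = -0.68). These values describe 12 libraries of 6 animals.

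Of 17 other integrin subunits, 10 were tested and 0 were called in any comparison by edgeR. At an unadjusted p under 0.05 there was 1, Itga10, lower in CFD IP than input and over both diets and higher in HFD IP than CFD IP, with 0 counts in all CFD IP libraries. That was 10% of the subunits tested in each of these comparisons. The shares of all genes were 11.8%, 13.9% and 10.9%, so the count does not set these subunits apart. The most abundant was Itga4, the alpha chain of VLA-4, with 463 to 1983 counts in each library and group means of 30.9 to 49.3 CPM. Next came Itga9, a receptor chain for tenascin-C, which ranged from 0 to 1063 counts. Itgax, an alternative alpha partner of Itgb2, had 0 counts in all 12 libraries, as did Itgae and Itgb2l, while Itgb2 was counted in each.

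Of 32 integrin ligands, 26 were tested and 0 were called in any comparison by edgeR with the filter and all animals. With no filter 1 was called in each of HFD IP against HFD input, IP against input over both diets and HFD IP against CFD IP, and without animal 676 1 was called over both diets. The laminin chain Lamc1 was the most abundant and the 1 ligand with an unadjusted p under 0.05. It was higher in HFD IP against either HFD input or CFD IP and in IP over both diets. This was 3.85% of the ligands tested in each, below the 6.51%, 10.9% and 13.9% of all genes. The HFD IP mean of Lamc1, 176 ± 243 CPM (SD, n = 3), rested on animal 516, with 13145 counts against 1239 and 1011. Edil3, a secreted ligand of alpha-v integrins, was steadier, with group means of 50.8 to 66.2 CPM.

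Of 36 adaptors and regulators on the cytoplasmic side of integrins, 35 were tested. Actn4, the actin crosslinker alpha-actinin 4, was the 1 gene called on CFD (2.86% of the 35, beside 0.188% of all genes), higher in IP by 1.99 (SE 0.41, edgeR adjusted p = 0.0711), with 210 ± 49.9 CPM in IP and 52.9 ± 18.1 CPM in input (SD, n = 3 each). On HFD, 0 were called, and 3 had an unadjusted p under 0.05 (8.57%, beside 6.51% of all genes). Over both diets 4 were called (11.4%, beside 2.35% of all genes). Ptk2b, the focal adhesion kinase family member Pyk2, rose by 0.87 (SE 0.19, adjusted p = 0.0393), Actn4 by 1.17 (SE 0.28, adjusted p = 0.0509) and Parva, the ILK-binding alpha-parvin, by 1.12 (SE 0.29, adjusted p = 0.0754). Apbb1ip (RIAM), which brings talin to integrins, fell, with 0, 0 and 1 counts in CFD IP and 102, 0 and 247 in HFD IP, against 82 to 506 counts in input (adjusted p = 0.0909, and 0.111 with animal as a replicate block). The other abundant adaptor, Tln2 (talin 2), was at 0.82 (SE 0.25, adjusted p = 0.107). The median over the 35 was -0.0015, beside -0.03 over all genes. Within each diet, the difference of IP from input was 1.10 on CFD and 0.63 on HFD for Ptk2b. It was 1.99 and 0.35 for Actn4, and 1.52 and 0.72 for Parva. Actn4 was lower in HFD IP than in CFD IP by a log2 difference of -1.56 (edgeR adjusted p = 0.255), not called. The calls depended on which animals were kept: the Actn4 call on CFD was lost without animal 489, 517, 555 or 556, and the count of 4 over both diets became 0 without 489, 516, 517 or 556, 2 without 555 and 3 without 676. Between the diets, 0 adaptors were called by edgeR in IP or in input, where 6 (3 higher and 3 lower, 17.1% beside 10.9% of all genes) and 0 had an unadjusted p under 0.05. In IP, edgeR with no filter called 2 and DESeq2 called 3.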

How the data were processed

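The authors prepared RNA from white matter of 6 mice as input and HA pulldown, sequenced it as paired-end reads, aligned it to mm10 with STAR and, per the labels, counted genes with HTSeq. The library kit differs between the sources, and whether counting used strand is not given in the sources used here. The deposited table holds counts per gene, used for every value here. It also holds FPKM values, which the authors scaled by gene length and which served only to give that length, and the deposited tables hold normalized signal, log2 fold changes and p-values of the authors' own comparisons, which were not used. Same-numbered input and IP libraries were taken as 1 animal.

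Counts of all 12 libraries were fitted with 4 group means by edgeR 4.0.16 in R 4.3.3 (TMM scaling, filterByExpr, quasi-likelihood test, adjusted p under 0.1 as in the study). Alternatives were RLE scaling, no filter on low counts, removal of Rn45s and Lars2, DESeq2 1.42.0, a replicate block (limma 3.58.1 between diets) and each animal left out. IP and input ratios per animal used a prior count of 2. Deviations of input and IP from their group means correlated at 0.00641 to 0.190 within animals, against a median of -0.0178 between animals. Positions are of RefSeq genes on the mouse build that mm10 names. The fit was also run on counts simulated from its own dispersions, with libraries drawn independently. That setting matches the model, so it does not test the pairing of libraries by animal or single high libraries. Counts and floors cover counting error only. The members and lists were chosen with earlier results of these data known. The genes named are the 10 members, genes overlapping them, listed genes that were called, Itga2b, the 2 most abundant genes of each list, the 5 genes most like Itgb3, and markers and checks of the libraries. Outside this rule, Fermt3 and Itga10 were named for their values and Itgb6 as a partner of alpha-v. Itgax, Itgae and Itgb2l were named because they had no counts in any library.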

Additional observations from a re-analysis of the deposited data

Results flagged for a closer look

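The mean difference of Itgb3 between IP and input had opposite signs on the diets. The log2 difference of IP from input was -4.94, -4.37 and -3.36 in CFD animals 489, 555 and 556 and 0.09, 5.25 and 1.80 in HFD animals 516, 517 and 676, so the HFD mean was 6.60 above the CFD mean. Every CFD animal lay below 0 and every HFD animal above it, and 1 of 10 members looked at showed this. The share of all genes that do so is not given here, so this count has no background to be read against. The value in animal 516 rests on 1 count in each fraction. The difference between the diets was not tested, since it contains the comparison of IP libraries that chose the gene.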

How the results depend on the processing

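The count of members called was 0 in the 4 tested comparisons under each alternative, with 1 exception. DESeq2 called 1, Itgb3, in CFD IP against CFD input, where it called 816 of all genes. It gave an adjusted p for 0 of the 10 in HFD IP against HFD input. Directions of fitted differences did turn, large ones included. With the replicate block the log2 difference became 0.95 for Itgb4 in CFD IP against input, -0.16 for Itga6, 0.27 for Itgb5 and -0.19 for Itgam over both diets, and 0.48 for Itgb2 in HFD against CFD input. The block changed no other sign and no member's call. The cause was not tested.

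With each animal left out in turn, sign changes gave these ranges. In CFD IP against input, Itgav ran from -0.84 to 1.06, Itga5 from -2.00 to 6.70, Itga6 from -0.15 to 2.12, Itgb4 from -1.20 to 2.43 and Itgb5 from -1.56 to 0.37. In HFD IP against input, Itgav ran from -0.54 to 0.21 and Itga5 from -2.90 to 0.53. Over both diets, Itgav ran from -0.44 to 0.51, Itga5 from -1.52 to 2.83, Itga6 from -0.80 to 0.58, Itgb5 from -0.50 to 0.70 and Itgam from -0.28 to 0.56. In HFD against CFD input, Itgav ran from -0.25 to 0.95, Itgb1 from -0.58 to 0.18, Itgb2 from -1.54 to 2.06, Itgb4 from -2.42 to 0.41 and Itgb8 from -0.59 to 0.14. Itgb3 kept its sign in each of the 11 alternatives of each comparison, and Itgb1 in those of IP against input.

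Counts of all genes called moved more. CFD IP against input gave 27, and 312 with no filter, 816 by DESeq2, 139 with the block and 2 to 52 with 1 animal left out. HFD IP against input gave 2, and 79, 160, 24 and 0 to 36, and 0 without Rn45s and Lars2. Over both diets there were 337, and 730, 996, 451 and 7 to 438. HFD IP against CFD IP gave 8, and 219, 770, 5 and 1 to 12. Adaptors called on CFD were 1, and 3 with no filter, 7 by DESeq2 and 2 with the block. Adaptors called over both diets were 4, and 7 with no filter, 8 by DESeq2 and 3 with the block. With 3 animals a group and counts near 0 for Itgb3 and Itga5, even large differences of these genes could go uncalled. The fitted Itgb3 differences of IP from input, -5.68 on CFD and 4.97 on HFD, exceeded its within-group SD of 2.71 in size. Neither was called by edgeR.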
